A study of Homo sapiens with 12 samples.

Results

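The 8 human genes that encode ligands of NKG2D (*ULBP1*, *ULBP2*, *ULBP3*, *MICA*, *MICB*, *RAET1E*, *RAET1G* and *RAET1L*) were followed by symbol through 12 RNA-seq libraries of MNNG/HOS cells exposed to NXP800. All 8 are among the 43236 genes counted, and 7 are among the 15979 that passed the filter on low counts. MNNG/HOS, spelled HOS-MNNG in the labels, is a chemically transformed human osteosarcoma line, so every group is the same line in culture. NXP800 is an oral small molecule first developed against the heat shock factor HSF1 pathway, and the study asked how it acts on osteosarcoma cells. The 4 groups are cells given DMSO, the solvent, for 6 h, 300 nM NXP800 for 6 h, DMSO for 24 h and 300 nM NXP800 for 24 h, with 3 libraries each. Nothing in the labels says whether the replicates were separate cultures, so the p-values measure the spread between these libraries.

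NKG2D is an activating receptor of natural killer (NK) cells and some T cells. Healthy cells show little of its ligands, and infection, DNA damage or other stress can bring them to the surface, which marks the cell for killing. *MICA* and *MICB*, in the HLA region, encode membrane-spanning proteins and are known for heat shock elements in their promoters. *ULBP1*, *ULBP2*, *ULBP3* and *RAET1L* (ULBP6) encode proteins held by a glycosylphosphatidylinositol (GPI) anchor, whereas *RAET1E* (ULBP4) and *RAET1G* (ULBP5) encode forms with a transmembrane part. *ULBP1* is known as a target of ATF4, the transcription factor of the integrated stress response (ISR). Ligands at the surface can also be cut off by proteases, and transcript counts do not measure them there.

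All 8 genes lie on chromosome 6 (RefSeq, GRCh38.p14), in 2 places. *MICA* (chr6:31400711-31415315) and *MICB* (chr6:31494918-31511124) stand beside the HLA class I genes. The other 6 stand together on the long arm, namely *RAET1E* (chr6:149883179-149898113), *RAET1G* (chr6:149916878-149923121), *ULBP2* (chr6:149942014-149949235), *ULBP1* (chr6:149963943-149973715), *RAET1L* (chr6:150018334-150025532) and *ULBP3* (chr6:150061053-150069121). The 250 bases before the start of 4 of them are printed here because *ULBP1* responded most strongly, *ULBP2* is its close relative, and *MICA* and *MICB* responded nearly alike. They are on the plus strand of GRCh38.p14, at chr6:149963693-149963942 for *ULBP1*, chr6:149941764-149942013 for *ULBP2*, chr6:31403345-31403594 for *MICA* and chr6:31497895-31498144 for *MICB*. The *MICA* and *MICB* windows lie inside the spans given for these genes, which reach to starts farther upstream. Capitals mark matches, on either strand, to TGACG (the core of a cyclic AMP response element), GAANNTTC (a pair of heat shock units) and CCAAT.
ULBP1: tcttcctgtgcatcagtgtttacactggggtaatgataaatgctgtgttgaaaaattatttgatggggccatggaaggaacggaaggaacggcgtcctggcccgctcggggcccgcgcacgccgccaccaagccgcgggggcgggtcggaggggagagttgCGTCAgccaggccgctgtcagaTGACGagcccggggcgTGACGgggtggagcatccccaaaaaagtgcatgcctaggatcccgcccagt
ULBP2: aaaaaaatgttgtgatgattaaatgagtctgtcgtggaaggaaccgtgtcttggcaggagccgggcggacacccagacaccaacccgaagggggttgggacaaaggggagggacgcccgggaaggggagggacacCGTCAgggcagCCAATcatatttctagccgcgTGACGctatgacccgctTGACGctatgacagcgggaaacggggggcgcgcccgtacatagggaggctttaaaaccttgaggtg
MICA: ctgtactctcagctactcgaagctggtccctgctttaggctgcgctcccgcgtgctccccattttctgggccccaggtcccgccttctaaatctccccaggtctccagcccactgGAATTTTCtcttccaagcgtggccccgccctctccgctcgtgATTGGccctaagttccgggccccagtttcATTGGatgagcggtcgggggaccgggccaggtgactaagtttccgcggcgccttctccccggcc
MICB: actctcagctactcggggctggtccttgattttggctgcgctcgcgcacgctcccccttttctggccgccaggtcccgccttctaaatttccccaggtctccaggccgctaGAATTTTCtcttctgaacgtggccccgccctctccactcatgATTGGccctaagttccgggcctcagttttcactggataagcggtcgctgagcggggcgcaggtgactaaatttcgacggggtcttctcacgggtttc

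The *ULBP1* and *ULBP2* windows each held 3 matches to TGACG, a motif added to the search after the sequences were seen, and the other 6 members held none. In *ULBP1* they began 89, 67 and 51 bases before the start, and in *ULBP2* 115, 83 and 66 bases before it. At least 1 match was present in 21.2% of 35116 RefSeq promoter windows of this length and at least 3 in 1.01%. No member held TGATGNAA, the composite of C/EBP and ATF factors (3.14% of windows), TGACGTCA (1.65%) or TGACGT (7.10%), the last 2 of which contain TGACG. GAANNTTC occurred once in *MICA* and once in *MICB* and in no other member (5.78% of windows). CCAAT was in the windows of *MICA*, *MICB*, *ULBP2*, *RAET1E* and *RAET1G* (32.0% of windows), and the GC box CCGCCC occurred 6 times in *ULBP3*, 2 times in *ULBP1*, once each in *ULBP2*, *MICA*, *MICB* and *RAET1G*, and not in *RAET1E* or *RAET1L* (at least 1 in 42.6% of windows). The *MICA* and *MICB* windows were identical at 82.7% of aligned bases and the *ULBP1* and *ULBP2* windows at 44%. These matches describe letters and not bound sites.

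Counts on genes lay between 30810614 and 31947656 per library. Read pairs on no annotated gene were 6.66 to 8.14% in 6 h libraries and 2.73 to 3.67% in 24 h libraries, so the time of treatment and the set of libraries cannot be told apart, and NXP800 was compared with DMSO within each time. Of the lineage markers, *VIM*, *SPARC*, *COL1A1*, *RUNX2* and *SPP1* passed the filter, while *SP7*, *BGLAP* and *IBSP*, which mark differentiated osteoblasts, had at most 2 counts in any library, *ALPL* at most 7 and *COL1A2* at most 12. The epithelial keratin *KRT8* was at a mean CPM, the count scaled to library size, of 553 to 865 by group, and *CDH1* had at most 2 counts. Of the 5 lineage markers tested, 1 was higher and 2 lower at 6 h, and 1 higher and 4 lower at 24 h, and of 4 epithelial and endothelial markers 2 were lower at 6 h, and 1 higher and 2 lower at 24 h. By the same test, 25.0% of all tested genes were higher and 27.8% lower at 6 h, and 27.5% and 28.6% at 24 h. The summed level of the lineage list was 5078 to 5275 CPM in DMSO and 4252 to 4404 CPM in NXP800 at 6 h, and 5944 to 6789 and 3805 to 4652 CPM at 24 h, and its part in the falls described here was not tested. None of 10 markers of NK and T cells passed the filter. Their summed level was 0.06 to 0.28 CPM over the 12 libraries, and *KLRK1*, which encodes NKG2D, was at 0 in all of them, where a count of 0 allows up to 3 counts. *HCST*, which encodes its adaptor DAP10, had at most 2 counts in any library, and *TYROBP*, the adaptor DAP12 of other NK receptors, had 0.

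NXP800 moved the ligand genes in opposite directions. At 6 h, *ULBP1* rose 4.19-fold, *ULBP3*, *MICA*, *MICB*, *RAET1E* and *RAET1G* fell, and *ULBP2* did not pass the test (adjusted p = 0.932). At 24 h, *ULBP1* was still 3.56-fold above DMSO and *MICA*, *MICB*, *RAET1E* and *RAET1G* below it, while *ULBP2* and *ULBP3* did not pass. Calls are at an adjusted p below 0.05 in edgeR's quasi-likelihood test over all tested genes. Of all tested genes, 25.0% were called higher and 27.8% lower at 6 h, and 27.5% and 28.6% at 24 h. The balance at 24 h depended on the scaling, with 4387 genes higher and 4566 lower by TMM and 5327 higher and 3747 lower by library size alone. Against this background, 1 of the 7 tested members was higher at either time, and 5 were lower at 6 h and 4 at 24 h. With the replicate number as a block, *ULBP2* was called higher as well at 24 h (adjusted p = 0.0322, edgeR). The median log2 fold change of the 7 was -0.64 at both times, against -0.05 and -0.003 for all tested genes. In these bulk cultures, a change in the share of cells that carry a transcript and a change in its amount per cell cannot be told apart.

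**Figure D1:**
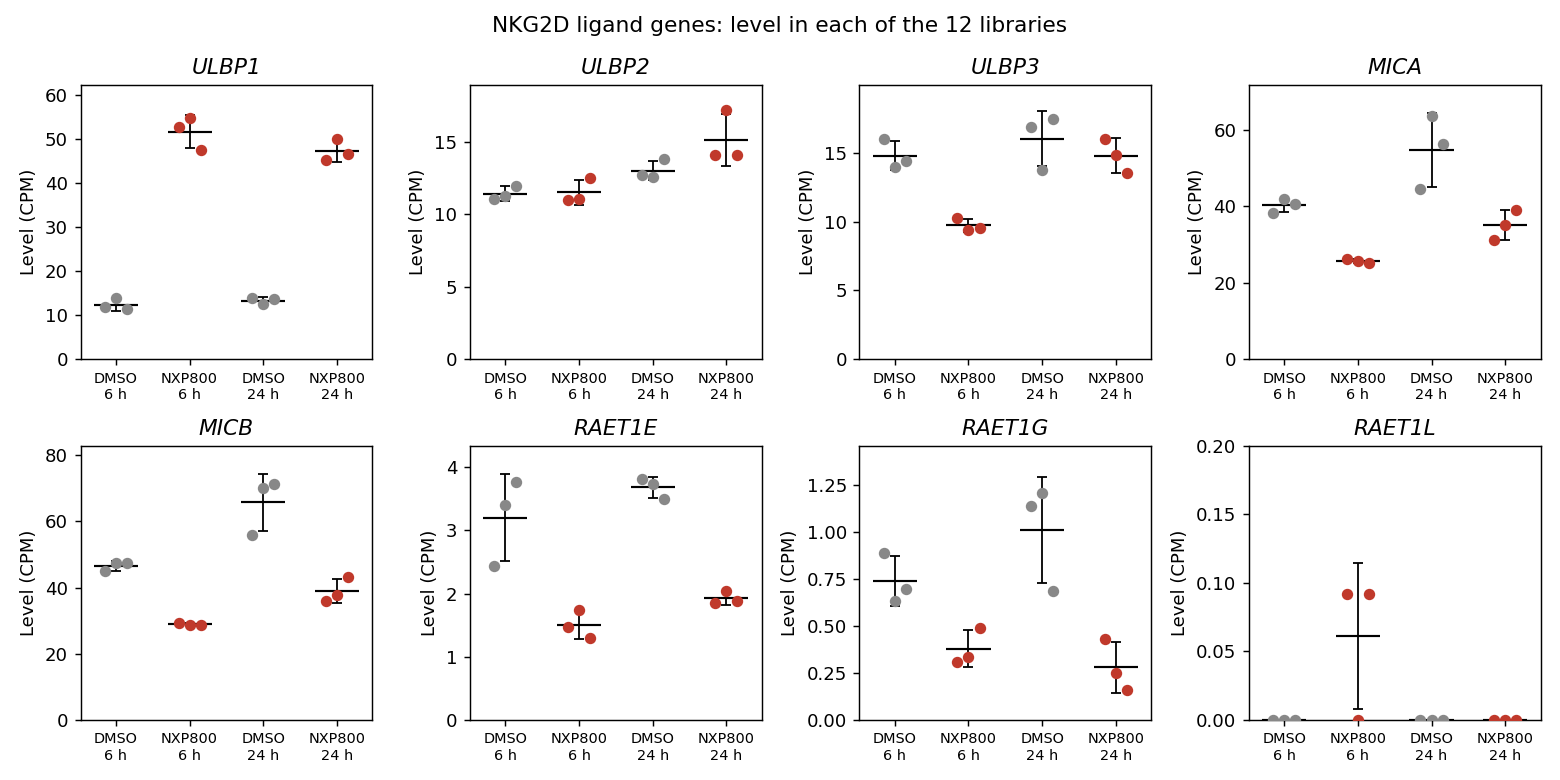
Level of each NKG2D ligand gene in each of the 12 libraries, in CPM on TMM-scaled library sizes (y axis, linear, from 0, with its own scale in each panel), by group (x axis). Points are libraries, the long line is the mean and the bars are the SD (n = 3). *ULBP1* is the gene whose treated libraries lie far above DMSO at both times, at 45.2 to 54.8 CPM against 11.3 to 13.8 CPM.

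In the main test, *ULBP1* was the one member called higher at either time. Levels here are CPM on library sizes scaled by TMM, given for replicates 1, 2 and 3 in that order. At 6 h it stood at 11.9, 13.8 and 11.3 CPM in DMSO and at 52.6, 54.8 and 47.5 CPM in NXP800. At 24 h it stood at 13.8, 12.5 and 13.5 CPM in DMSO and at 45.2, 49.9 and 46.6 CPM in NXP800. The lowest treated library was thus more than 3 times the highest DMSO library. The group means were 12.3 ± 1.33 and 51.6 ± 3.75 CPM at 6 h and 13.3 ± 0.69 and 47.2 ± 2.43 CPM at 24 h (SD, n = 3). The log2 fold change was 2.07 at 6 h (SE 0.09, adjusted p = 6.45e-11, edgeR) and 1.83 at 24 h (SE 0.09, adjusted p = 1.47e-10, edgeR). From the highest fold change down, *ULBP1* was number 170 of 15979 genes at 6 h and 310 at 24 h. The 24 h response was 0.24 lower on the log2 scale, with a 95% interval from -0.50 to 0.02 and an adjusted p of 0.17.

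*ULBP2*, whose coding sequence is 77.2% identical to that of *ULBP1*, showed no such rise. At 6 h it was at 11.1, 11.2 and 11.97 CPM in DMSO and at 11.0, 11.0 and 12.5 CPM in NXP800, and the groups overlapped. At 24 h it was at 12.7, 12.5 and 13.8 CPM in DMSO and at 14.1, 17.2 and 14.1 CPM in NXP800, and the groups did not overlap. The log2 fold change was 0.01 at 6 h (95% interval -0.20 to 0.23, adjusted p = 0.932) and 0.22 at 24 h (0.01 to 0.43, adjusted p = 0.0739). With the replicate number as a block, the 24 h value was 0.21 with an adjusted p of 0.0322. Without NXP800 24 h replicate 3, it was 0.27 (adjusted p = 0.0478), and scaling by library size alone gave 0.31 (adjusted p = 0.0237). The call at 24 h thus depended on the pairing, the scaling and the libraries used. At both times the intervals of *ULBP1* and *ULBP2* lay far apart.

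*ULBP3*, the third GPI-anchored ligand here, fell at 6 h and not detectably at 24 h. At 6 h it was at 16.0, 13.97 and 14.5 CPM in DMSO and at 10.3, 9.39 and 9.55 CPM in NXP800, with no overlap and a log2 fold change of -0.61 (SE 0.11, adjusted p = 0.000167). At 24 h it was at 16.9, 13.8 and 17.5 CPM in DMSO and at 16.0, 14.9 and 13.5 CPM in NXP800, with overlap and a log2 fold change of -0.12 (95% interval -0.34 to 0.10, adjusted p = 0.354). It was the one member whose 2 responses differed by the test of the difference, by 0.49 on the log2 scale (SE 0.15, adjusted p = 0.024). Over all tested genes, 12% were called with a higher and 13.8% with a lower response at 24 h (1924 and 2205 genes, or 2463 and 1670 with scaling by library size alone). The *ULBP3* difference lost its call without any one of DMSO 6 h replicate 1, NXP800 6 h replicate 2, DMSO 24 h replicate 2 and NXP800 24 h replicate 1, where the adjusted p was 0.0569 to 0.0673.

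*MICA* and *MICB* fell together at both times. *MICA* was at 38.3, 41.8 and 40.6 CPM in DMSO 6 h and at 26.3, 25.8 and 25.1 CPM in NXP800 6 h. At 24 h it was at 44.5, 63.7 and 56.3 CPM in DMSO and at 31.1, 35.2 and 39.1 CPM in NXP800. *MICB* was at 44.9, 47.6 and 47.5 CPM in DMSO 6 h and at 29.2, 28.7 and 28.8 CPM in NXP800 6 h. At 24 h it was at 55.9, 70.2 and 71.4 CPM in DMSO and at 36.0, 37.6 and 43.2 CPM in NXP800. The groups did not overlap for either gene, and DMSO 24 h replicate 1 was the lowest DMSO library of its time for both. The log2 fold change of *MICA* was -0.64 at both times (SE 0.11, adjusted p = 0.00012 at 6 h and 9.08e-05 at 24 h). That of *MICB* was -0.69 at 6 h (SE 0.09, adjusted p = 9.23e-06) and -0.76 at 24 h (SE 0.09, adjusted p = 2.46e-06). The 2 responses did not pass the test of the difference for *MICA* (0.00, 95% interval -0.32 to 0.32, adjusted p = 0.996) or *MICB* (-0.07, -0.34 to 0.20, adjusted p = 0.748). The pair, 78.8% identical in coding sequence, shared no stretch of 100 bases in their reference transcripts. How reads on alternate sequences of the HLA region were handled is not given in the sources used here, and it could affect the levels of both genes.

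*RAET1E* and *RAET1G* were low and fell as well. *RAET1E* was at 2.44, 3.41 and 3.77 CPM in DMSO 6 h and at 1.47, 1.74 and 1.29 CPM in NXP800 6 h, and the fold change was -1.09 on the log2 scale (SE 0.18, adjusted p = 0.00011). At 24 h it was at 3.81, 3.73 and 3.50 CPM in DMSO and at 1.85, 2.04 and 1.88 CPM in NXP800, and the fold change was -0.94 on the log2 scale (SE 0.18, adjusted p = 0.000304). The groups did not overlap at either time. *RAET1G* had 28, 20 and 23 counts in DMSO 6 h and 10, 11 and 16 in NXP800 6 h, then 34, 36 and 20 in DMSO 24 h and 13, 8 and 5 in NXP800 24 h. Its groups did not overlap either, with a log2 fold change of -0.96 at 6 h (SE 0.34, adjusted p = 0.0276) and -1.85 at 24 h (SE 0.35, adjusted p = 0.000323). The 6 h call of *RAET1G* was lost in DESeq2's Wald test (adjusted p = 0.0769) and without DMSO 6 h replicate 1 (0.104), NXP800 6 h replicate 1 (0.0991) or NXP800 6 h replicate 2 (0.0846). Exons of other genes overlap 16.2% of the exon bases of *RAET1E* and 9.29% of those of *RAET1G*, among them *RAET1E-AS1*, and whether the counting used strand is not given in the sources used here.

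*RAET1L* was not measurable at this depth. It had 3 counts in NXP800 6 h replicates 1 and 3 and 0 in the other 10 libraries, and it was not tested. Its coding sequence is 96.8% identical to that of *ULBP2*, and 11.8% of its 100-base windows occur in *ULBP2* or *RAET1G*, against 12.1% of those of *ULBP2* that occur in *RAET1G* or *RAET1L*. Reads from such stretches align to several places, so values of these 3 genes are uncertain to that extent. With the 3 genes summed, the 6 h log2 fold change was -0.02 (adjusted p = 0.849), as against 0.01 for *ULBP2* alone.

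**Figure D2:**
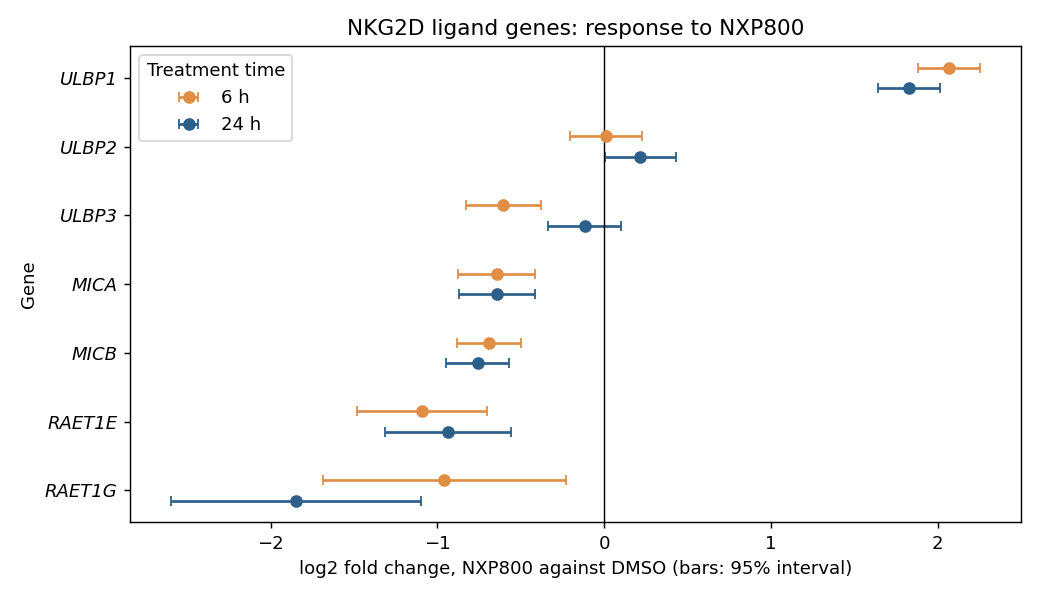
Log2 fold change of NXP800 against DMSO (x axis) for the 7 tested ligand genes (y axis) at 6 h and 24 h, with 95% intervals as bars. *ULBP1* lies at 2.07 and 1.83, *ULBP2* at 0.01 and 0.22, and *MICA*, *MICB*, *RAET1E* and *RAET1G* lie below 0 at both times.

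Levels of different genes were compared per kilobase of the Ensembl canonical transcript. In DMSO 6 h the order was *MICA* at 29.4 ± 1.32, *MICB* at 19.3 ± 0.62, *ULBP2* at 8.55 ± 0.36, *ULBP3* at 4.76 ± 0.34, *ULBP1* at 3.84 ± 0.41, *RAET1G* at 0.64 ± 0.12 and *RAET1E* at 0.49 ± 0.11 CPM per kilobase (SD, n = 3), and DMSO 24 h had the same order. Of these neighbours, only *RAET1G* and *RAET1E* overlapped in DMSO 6 h. In NXP800 6 h *ULBP1* was second, at 16.1 ± 1.17 CPM per kilobase, between *MICA* at 18.8 ± 0.43 and *MICB* at 11.96 ± 0.10. In NXP800 24 h it followed, at 14.7 ± 0.76 CPM per kilobase, after *MICA* at 25.7 ± 2.91 and *MICB* at 16.1 ± 1.55, and it overlapped *MICB*.

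*ULBP1* made up 5.73 ± 0.54% of the summed level of the 8 genes per kilobase in DMSO 6 h and 27.2 ± 1.62% in NXP800 6 h. At 24 h its share was 4.77 ± 0.78% in DMSO and 20.1 ± 0.96% in NXP800. *MICA* went from 43.8 ± 0.74% to 31.8 ± 0.34% at 6 h and from 45.4 ± 3.30% to 35.04 ± 2.13% at 24 h. *MICB* went from 28.8 ± 0.20% to 20.2 ± 0.28% and from 31.0 ± 1.00% to 22.0 ± 1.34%. The groups did not overlap for any of these shares. The summed level was 67.0 ± 1.92 CPM per kilobase in DMSO and 59.2 ± 0.87 in NXP800 at 6 h, and 87.8 ± 9.92 and 73.1 ± 4.41 at 24 h. At 6 h the lower sum depended on the transcript lengths. With the union of annotated exons as length, a length added once the values were known and longer for *MICA*, the sums at 6 h were 45.2 ± 1.02 and 45.4 ± 0.64. At 24 h they were 58.0 ± 5.14 in DMSO and 54.3 ± 2.65 in NXP800, lower in the mean with overlapping libraries. By the means at that length, *MICB* was first in DMSO and *ULBP1* first in NXP800 at both times. In NXP800 24 h *ULBP1* was at 14.7 and *MICB* at 13.9 CPM per kilobase, with overlapping libraries. The share of *ULBP1* was then 8.48% in DMSO and 35.4% in NXP800 at 6 h, and 7.19% and 27.1% at 24 h. That of *MICA* was 23.1% and 14.7% at 6 h and 24.4% and 16.8% at 24 h. That of *MICB* was 36.9% and 22.8% at 6 h and 40.5% and 25.6% at 24 h. Both still fell, but the size of the *MICA* share depended on the length used, and *MICA* then ranked 4 in NXP800 at both times.

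**Figure D3:**
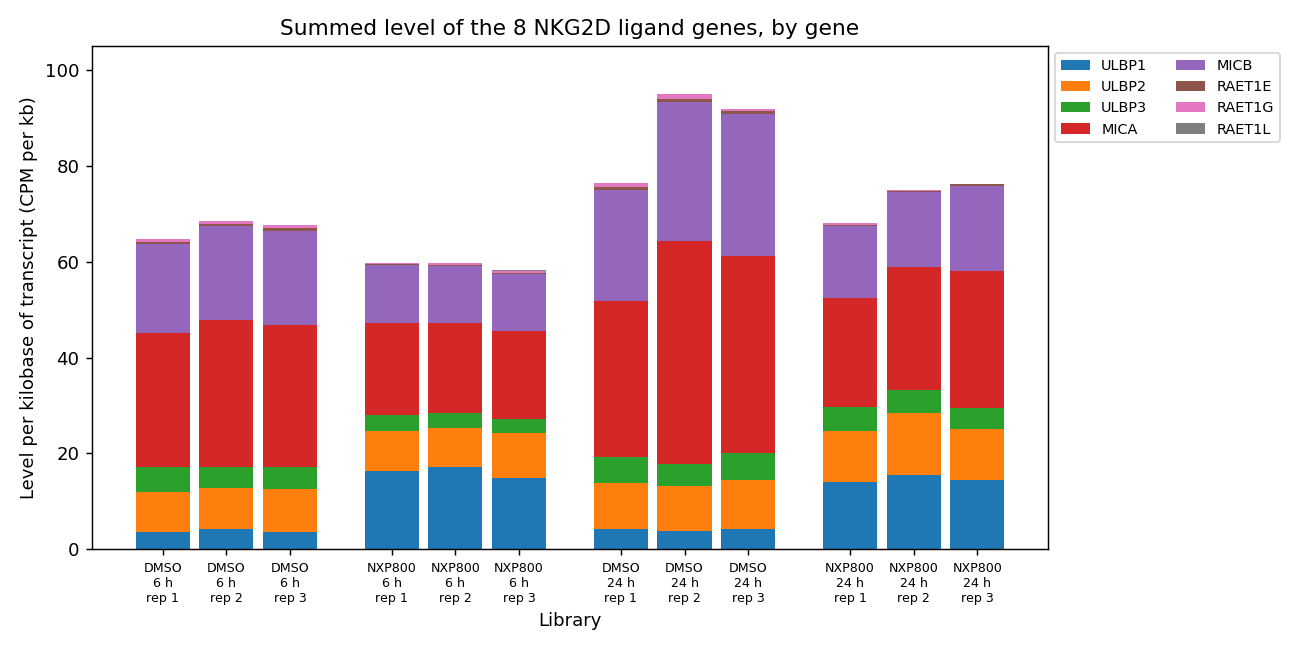
Summed level of the 8 NKG2D ligand genes in each library (x axis), in CPM per kilobase of the Ensembl canonical transcript (y axis, linear, from 0), stacked by gene. The *ULBP1* segment is 3.51 to 4.30 in the 6 DMSO libraries and 14.1 to 17.1 in the 6 NXP800 libraries, while the *MICA* and *MICB* segments are shorter in NXP800 than in DMSO of the same time.

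Over the 12 libraries, the log2 CPM of *MICA* and *MICB* correlated with r = 0.99, and that of *ULBP1* with *RAET1E*, *RAET1G*, *MICB* and *MICA* with r = -0.90, -0.85, -0.82 and -0.78. These are descriptions, since the libraries fall into the 4 groups and share the treatment. Among 12034 genes averaging a log2 CPM of 1 or more, those most like *ULBP1* were *POLR3C*, a subunit of RNA polymerase III, *TRIB3*, a pseudokinase known as an ISR target, and *XBP1*, a transcription factor of the unfolded protein response, with r = 0.996, 0.994 and 0.993. *TRIB3* rose by far more than *ULBP1*, with log2 fold changes of 4.18 and 3.73 at 6 h and 24 h, *XBP1* by nearly the same (2.04 and 1.83) and *POLR3C* by less (1.01 and 0.91). The gene most like both *MICA* and *MICB* was *PCYT2*, an enzyme of phosphatidylethanolamine synthesis (r = 0.99 with each), which fell by 0.67 and 0.76 on the log2 scale. *MICA* was followed by *P3H3* and *FAM117A* (both r = 0.98), and *MICB* by *HDGFL2* (r = 0.99) and *NRN1* (r = 0.98). Most like *ULBP3* was *FAM98A* (r = 0.98), which also fell at 6 h (-0.50) and did not pass at 24 h (-0.10, adjusted p = 0.247), followed by *CDON* and *SEC61B* (both r = 0.97). For *RAET1E* the genes were *ADAMTS15*, *ADAMTS9* and *HDAC1* (r = 0.96, 0.96 and 0.95), for *RAET1G* *SLC6A6*, *RBMS1* and *PSMB2* (0.97, 0.95 and 0.95), and for *ULBP2* *PLXNB1*, *BSG-AS1* and *C17orf67* (0.94, 0.93 and 0.93).

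Of 18 genes tied to the regulation of NKG2D ligands, 9 were higher and 3 lower at 6 h, and 7 higher and 5 lower at 24 h. Their medians were 0.13 and 0.09 on the log2 scale, against -0.05 and -0.003 for all tested genes. For this list and those that follow, the shares over all tested genes were 25.0% higher and 27.8% lower at 6 h. At 24 h they were 27.5% and 28.6%. *ATF4* rose by 0.66 at 6 h (SE 0.07, adjusted p = 1.63e-06) and 0.51 at 24 h (SE 0.07, adjusted p = 1.91e-05) on the log2 scale. *DDIT3*, which encodes CHOP, rose by 3.05 and 3.01 (adjusted p = 2.38e-11 and 2.39e-11), from 13.1 ± 0.10 to 108 ± 15 CPM at 6 h and from 9.40 ± 1.05 to 75.6 ± 10.4 CPM at 24 h. *XBP1* rose as given above. *MYC* rose by 2.36 and 1.44 and *JUN*, a subunit of AP-1, by 1.19 and 0.88. Smaller rises were those of *SP1* (0.38 and 0.23) and *RBM4* (0.33 and 0.47). *EZH2* (0.34 and -0.07) and *SP3* (0.25 and 0.14) were called higher at 6 h only. *E2F1* (-0.33 and -1.16), *IGF2BP3* (-0.42 and -0.66) and *HDAC3* (-0.42 and -0.50) fell at both times. *STAT3* (-0.02 and -0.85) and *CHEK1* (-0.07 and -0.77) were called lower at 24 h only. *HSF1*, known to act on the *MICA* and *MICB* promoters, was at -0.08 (adjusted p = 0.371) and -0.07 (adjusted p = 0.391). A transcript level does not measure the activity of these factors.

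Of 8 genes for the shedding of ligands, 1 was higher and 3 lower at 6 h, and 1 higher and 4 lower at 24 h. The one that rose was *ADAM17*, by 0.50 (adjusted p = 6.41e-05) and 0.35 (adjusted p = 0.00131), while its relative *ADAM10* fell by 0.25 (adjusted p = 0.00399) and 0.26 (adjusted p = 0.00259). The gelatinase *MMP2* fell by 0.56 and 1.22, and *PDIA6*, a disulfide isomerase known to assist the shedding of MICA, by 0.48 and 0.64. *ADAM9* was at 0.09 at 6 h (adjusted p = 0.315), and at 24 h it fell by 0.29. Of the 5 subunits of the GPI transamidase, which attaches the anchor of ULBP proteins, *PIGS* (-0.31 and -0.62), *PIGK* (-0.19 and -0.43) and *PIGU* (-0.28 and -0.24) fell at both times, and none rose.

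Of 10 ligands of other activating NK cell receptors, 9 were tested, and 2 were higher and 4 lower at 6 h (5 higher with the replicate block), and 3 higher and 2 lower at 24 h. *PVR*, a ligand of DNAM-1, rose by 0.47 (adjusted p = 8.41e-06) and 0.77 (adjusted p = 3.06e-08), while *NECTIN2*, the other DNAM-1 ligand, fell by 0.50 (adjusted p = 4.51e-05) and 0.66 (adjusted p = 1.8e-06). *NCR3LG1*, which encodes the NKp30 ligand B7-H6, was at 0.30 at 6 h (adjusted p = 0.0533), and by 24 h it had risen by 1.15 (adjusted p = 1.43e-06). *SLAMF7* had 3 to 11 counts in DMSO 24 h and 94 to 159 in NXP800 24 h. *ICAM1*, the ligand of the integrin LFA-1, rose by 1.01 at 6 h and was at 0.14 at 24 h (adjusted p = 0.484), and *CLEC2B*, the ligand of NKp80, fell by 0.79 and 0.94. *CD48* was at 0 counts in all libraries but those of NXP800 24 h, which had at most 2.

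Of the HLA class I genes and *B2M*, which feed inhibitory NK cell receptors, 6 of 7 were tested, and 1 was higher and 1 lower at 6 h, and 3 higher and 2 lower at 24 h. *HLA-B* rose by 0.36 and 0.49, and *HLA-C* was at 0.07 at 6 h (adjusted p = 0.499) and at 24 h rose by 0.39. *B2M*, the shared light chain, fell by 0.30 and 0.64, and *HLA-F* was at -0.02 at 6 h (adjusted p = 0.933) and fell by 0.83 at 24 h. *HLA-G* was at 0 counts in all 12 libraries. The HLA genes are variable and alike, so reads could be split between them. Beside the ligand genes, the pseudogene *RAET1K* (-0.19 and -0.02), *RAET1E-AS1* (-0.44 and -0.18) and *MICA-AS1* (-0.27 and 0.03) did not pass the test at either time (adjusted p between 0.258 and 0.956), and *MICB-DT* and *HCP5* had at most 8 counts in any library and were not tested.

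**Figure D4:**
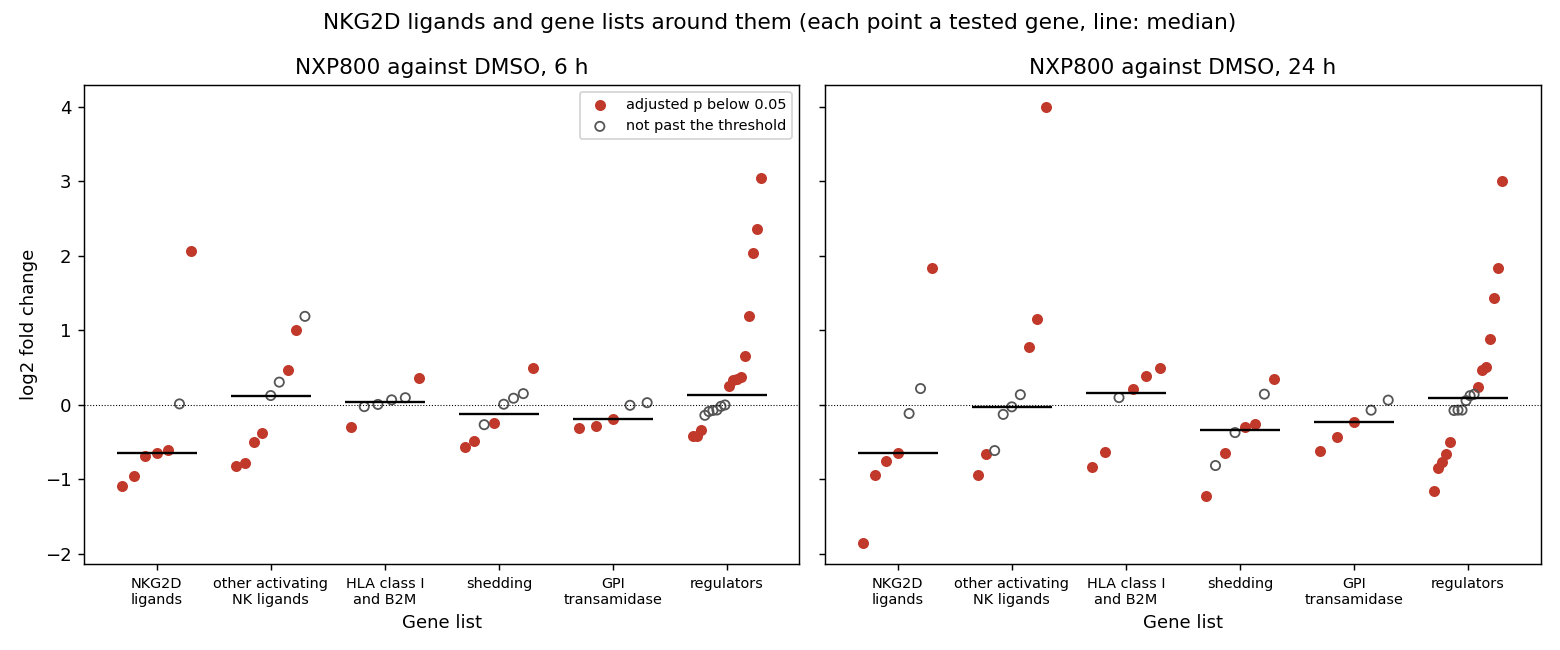
Log2 fold change of NXP800 against DMSO (y axis) for each tested gene of the NKG2D ligands and of 5 lists around them (x axis), at 6 h and 24 h. Filled points passed the test (adjusted p below 0.05), open points did not, and lines are list medians. The ligands have a median of -0.64 at both times, with *ULBP1* alone above 1, and the regulators include *DDIT3* at 3.05 and 3.01.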

How the data were processed

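RNA was measured in 12 libraries of MNNG/HOS cells, made with a strand-specific mRNA kit and sequenced as paired ends. Each deposited file holds raw counts for 1 library, which the authors made with fastp 0.20.1, STAR 2.7.5a and HTSeq 0.12.4 on hg38 with the RefSeq annotation of GRCh38.p14, per the labels and the methods. They carry no normalization, and the strand setting is not given in the sources used here. Rows of the counter that name no gene held 8.02 to 12.2% of each file and were left out.

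Tests were run with edgeR 4.0.16 under R 4.3.3 (filterByExpr, TMM, glmQLFit and glmQLFTest in one model of the 12 libraries). DESeq2 1.42.0 was run as an alternative. Benjamini-Hochberg adjustment was over all 15979 tested genes. All adjusted p-values are from edgeR unless DESeq2 is named. Treatment was compared with DMSO within each time, and the 2 responses with each other. The procedure was tested on simulated counts with the same spread setting for every gene and no replicate pairing, so neither was checked. With 30810614 to 31947656 counts per library, precision is set by replicate spread except for low genes. The 95% intervals are from the edgeR fit, and a limit from a count of 0 covers counting error only. Other settings tried were scaling by library size alone or by the factors of DESeq2, both a looser and a stricter filter (none, or 10 counts or more everywhere), a fit of each time alone, the replicate block, omission of each library, a stricter threshold (0.01), and *ULBP2*, *RAET1G* and *RAET1L* summed.

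The members and lists were chosen with earlier results of these data known. Named genes are the 8 members, 8 fixed genes, up to 4 called genes with the largest change per list, neighbours, and the 3 genes most correlated with each tested member (log2 CPM, prior count 2). Regulators called higher or lower at 6 h, at 24 h or in the difference were named as well. The marker lists were only tallied, with the genes at low counts named. The labels number the replicates, and a pairing by that number was inferred from the correlations given below, each over 0.1 for the same number. The main tests left this pairing out, and the replicate block was run as an alternative. Deviations from the group means, taken over genes, gave r of 0.16 to 0.33 between treated and control libraries that carry the same number, and at most 0.06 otherwise. Replicates of a group differed by more than sampling noise, so none was counted as a duplicate. Transcript lengths and exon overlaps are from GENCODE 44, and promoters from RefSeq.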

Additional observations from a re-analysis of the deposited data

Results flagged for a closer look

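The following differences between the 24 h and the 6 h response passed the test of the difference itself (edgeR, 24 h minus 6 h, log2 scale). Only named genes outside the marker lists are given. Among the ligand genes only *ULBP3* passed, by 0.49 (adjusted p = 0.024). Among the surface ligands of other receptors and the HLA genes, the response was higher at 24 h for *NCR3LG1* by 0.85 (adjusted p = 0.00267), *PVR* by 0.30 (adjusted p = 0.0195), *SLAMF7* by 2.81 (adjusted p = 0.0123) and *HLA-C* by 0.32 (adjusted p = 0.0405), and lower for *ICAM1*, at -0.87 (adjusted p = 0.00703). It was lower at 24 h for *MMP2*, at -0.66 (adjusted p = 0.00138), *ADAM9*, at -0.38 (adjusted p = 0.0107), and *PIGS*, at -0.31 (adjusted p = 0.0255). By the same test, the response at 24 h was higher for 12% and lower for 13.8% of all tested genes. Of the 18 regulators, 0 had a higher and 5 had a lower response at 24 h. They were *MYC*, at -0.92 (adjusted p = 0.00274), *E2F1*, at -0.82 (adjusted p = 1.95e-05), *STAT3*, at -0.83 (adjusted p = 0.000549), *CHEK1*, at -0.70 (adjusted p = 1.78e-05), and *EZH2*, at -0.42 (adjusted p = 0.00743). Of the genes most like a ligand gene, the response was higher for *PLXNB1* by 0.78 (adjusted p = 0.0349), *FAM98A* by 0.40 (adjusted p = 0.00869) and *CDON* by 0.92 (adjusted p = 0.0154). These genes were chosen for their correlation with *ULBP2* (*PLXNB1*) or *ULBP3* over the same libraries. Their differences are thus no separate support for those of the ligand genes. The time points are separate sets of libraries, so time and set cannot be told apart.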

How the results depend on the processing

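The 7 tested ligand genes gave 21 log2 fold changes and 413 alternatives of them, of which 387 kept direction and side of the threshold. Those of *ULBP1*, *MICA*, *MICB* and *RAET1E* against DMSO did so at both times in every alternative run, as did *RAET1G* and *ULBP3* at 24 h and *ULBP3* at 6 h.

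The *ULBP2* value at 6 h, near 0, changed sign, at -0.0500 to 0.0475 without 1 library and -0.0247 when summed with *RAET1G* and *RAET1L*. At 24 h *ULBP2* passed the threshold at 0.31 by library size only and at 0.21 with the replicate block, which made 2 members higher, and was at 0.14 to 0.27 without 1 library, with 1 or 2 members higher. *RAET1G* at 6 h lost its call at -0.95 in DESeq2's Wald test, at -0.96 with an adjusted p below 0.01, and lay between -1.19 and -0.81 without 1 library. For the difference of the responses, *MICA*, near 0, was at -0.0042 with DESeq2 size factors, at -0.0059 in DESeq2's Wald test and at -0.13 to 0.12 without 1 library, and *MICB* at 0.00797 by library size only. *ULBP3* was at 0.39 to 0.55 without 1 library, with 0 or 1 members called, and at 0.49 with 0 members called at an adjusted p below 0.01. The causes were not tested.

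In the lists, the replicate block gave 5 higher (DESeq2 4, against 2) among other activating ligands at 6 h and 2 higher (against 1) for shedding at 24 h. For the difference, it gave 2 lower GPI transamidase genes (against 1), and 2 higher (against 1) and 2 lower (against 0) HLA class I genes. Library size only gave 1 lower shedding gene (against 2), 0 lower GPI transamidase genes and 2 higher HLA class I genes. Over all genes the difference had 2945 higher and 3339 lower calls with the block, and 946 and 1290 at an adjusted p below 0.01, against 1924 and 2205. The block changed no other call of a ligand gene. Library size only moved the 24 h median of all genes to 0.09. The fit of 1 time point alone cannot give the difference. Depth limits *RAET1G* and *RAET1L*.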
